A study of Mus musculus with 72 samples.

Results

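Testis and liver of naturally conceived males were compared in 10 of the 72 RNA-seq libraries of the series, 5 F2 natural testes and 5 F2 natural livers of sons at 12 weeks of age. The members were all natural libraries of these 2 tissues, taken from the labels and from the 35976 gene symbols that both count tables share. The question this comparison answers is which genes are specific to each tissue in the control males of the second generation. The sons were sired by naturally conceived F1 males, which carried CF-1 and SJL/B6 ancestry and could carry a CAG-EGFP transgene, and were born to wild-type CF-1 females, so that the animals are not inbred. No in vitro fertilization entered either group. The samples are pieces of whole tissue, and in bulk RNA a lower cell share and less RNA per cell cannot be told apart. The labels do not say whether a testis and a liver with the same number came from 1 male, and they name no culture or litter, so that the p-values measure the spread between these samples. The submitters' design notes name 2 sequencers, while the paper names a single platform. No label says which library ran on which sequencer, so that tissue and sequencing run cannot be told apart.

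The adult testis makes sperm in seminiferous tubules, in which spermatogonia divide, spermatocytes pass through meiosis and haploid spermatids build an acrosome and a flagellum while protamines replace the histones. Sertoli cells support these germ cells and Leydig cells between the tubules make testosterone. The liver is made mostly of hepatocytes, which secrete the proteins of blood plasma, clear ammonia through the urea cycle, make bile acids and store and release glucose. In spermatocytes the X and Y chromosomes are silenced during meiosis, and several X-linked housekeeping genes have autosomal copies, made by retroposition, that are used in germ cells.

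The testis libraries held between 23707177 and 27346141 counts (median 26518534) and the liver libraries between 10391074 and 44069283 (median 15917095), and the difference in log2 depth was 0.56 with an exact two-sided permutation p of 0.167. Values below are CPM, counts relative to the library total as scaled with TMM factors, which were 1.33 to 1.37 in testes and 0.714 to 0.773 in livers. RPKM is CPM divided by the length of a gene's exons in kilobases. The 100 most abundant genes took 14.8% to 15.3% of the counts in testes and 43.8% to 47.2% in livers, and albumin alone took 4.77% to 7.36% of the counts of a liver. With 1 CPM as the minimum, 17134 to 17248 genes were detected per testis and 12276 to 13095 per liver.

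Some libraries held counts of the other tissue, and they are named here because they touch the results. The check used 497 testis genes with at least 50 CPM in each of testes 3 to 5 and at most 0.1 CPM in livers 2 and 3. Of these, 460 had counts in liver 1, 445 in liver 4 and 447 in liver 5, and their summed level was 0.710%, 0.185% and 1.19% of that in testes 3 to 5. Livers 2 and 3 had counts for 11 and 6 of them, a difference that the choice of genes fixes. In the same way, 112 liver genes at no more than 0.1 CPM in testes 3 to 5 gave counts for 70 and 73 genes in testes 1 and 2, at 0.0123% and 0.0129% of the liver level. Testes 3 to 5 had counts for 22, 30 and 20 of them, at 0.000552% to 0.000635%. Prm2, a protamine of sperm chromatin, had 30.8, 0, 0, 6.85 and 79.3 CPM in livers 1 to 5. Alb, the main protein of plasma, had 10.6, 11.8, 0.0566, 0.0560 and 0 CPM in testes 1 to 5. The cause of these counts was not tested. Some results that rest on low levels are therefore also given for testes 3 to 5 and livers 2 and 3 alone, a choice made after the data were seen. The other fold changes are over all libraries and include these counts.

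**Figure D1:**
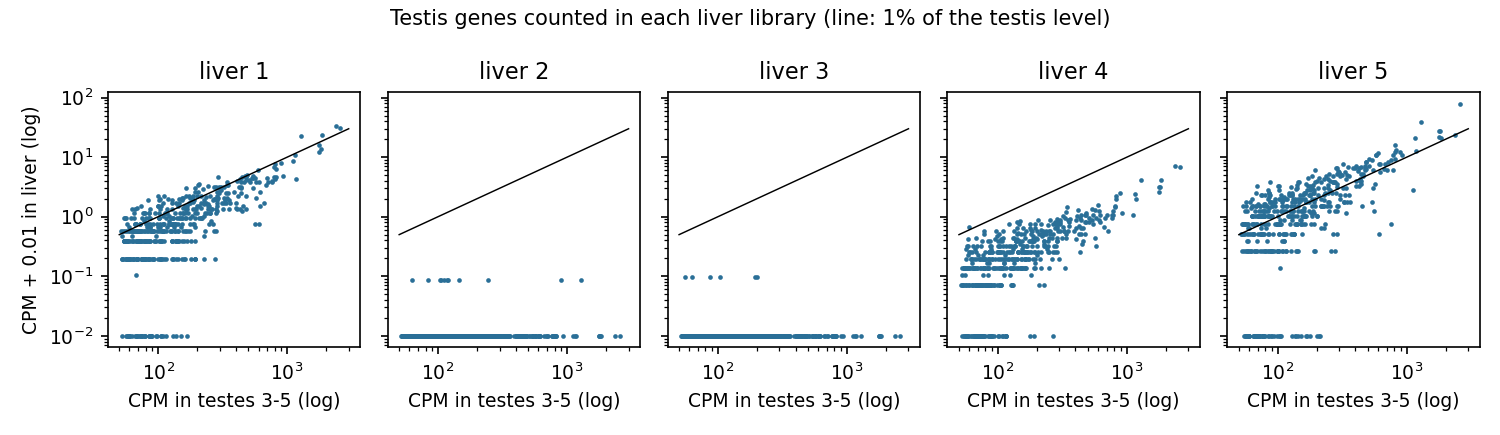
Levels of 497 testis genes in each of the 5 liver libraries, as CPM + 0.01 on a log axis, against their mean CPM in testes 3 to 5, also on a log axis; each point is 1 gene and the line marks 1% of the testis level. Points follow a parallel band in livers 1, 4 and 5, while nearly all lie at the bottom in livers 2 and 3.

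Most genes differed between the tissues. Of 20555 genes tested, 17820 (86.7%) were called, where a call needs an adjusted p under 0.05 and more than 1.5-fold in edgeR's quasi-likelihood test. Of all genes tested, 55.4% (11380) were higher in testis and 31.3% (6440) were higher in liver, and 9143 (44.5%) and 3642 (17.7%) differed more than 4-fold. The 55.4% and 31.3% are the shares beside which the counts of list members below are to be read. The groups did not overlap for 87.5% of the genes tested, with each testis above each liver for 55.7% and each liver above each testis for 31.8%. The median log2 fold change, testis minus liver, was 1.25. Scaling moved this centre. It was 1.61 with DESeq2 size factors and 2.11 with library totals, where 13304 genes were higher in testis and 4622 in liver, so that testis took 74.2% of the calls in place of 63.9%. Without the libraries that held the most counts of the other tissue, 12633 (57.6%) of 21935 genes tested were higher in testis and 6045 (27.6%) in liver.

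**Figure D2:**
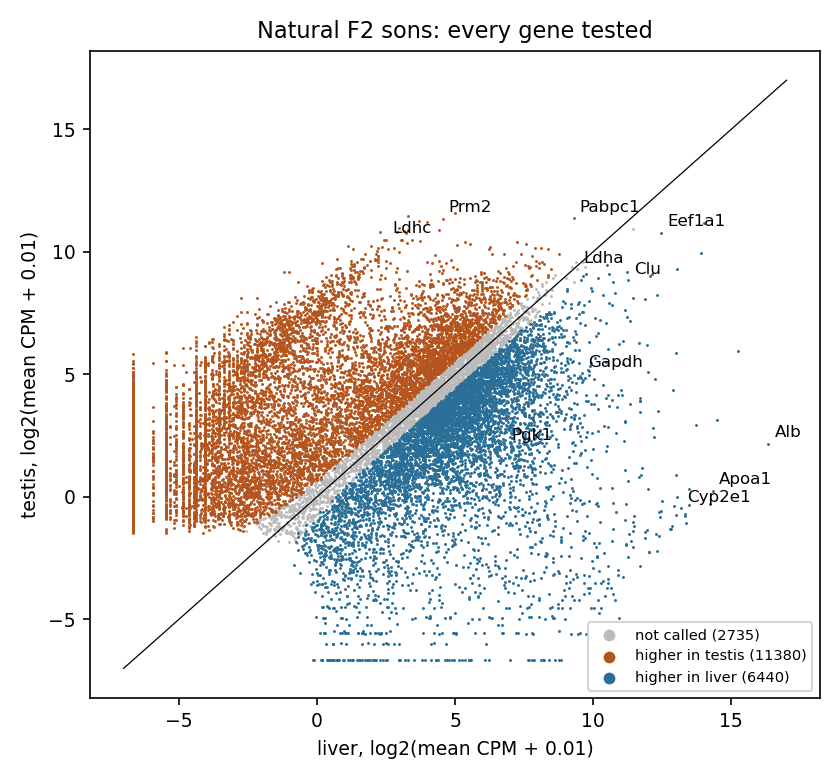
Mean level of every gene tested in 5 testes against 5 livers, as log2(mean CPM + 0.01); each point is 1 gene, coloured by its call, and the line marks equal levels. The 11380 genes higher in testis include a band at the left edge with no count in any liver, and Alb lies farthest to the right.

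Per length, the transcripts with the highest level in testis were those of the spermatid nucleus. Tnp2 and Tnp1, the transition proteins that replace histones before the protamines, reached 4361 ± 596 and 4283 ± 674 RPKM (SD, n = 5). The protamines Prm2 and Prm1 followed with 2912 ± 172 and 2416 ± 417 RPKM. The other genes among the first 10 were Smcp, a mitochondrial protein of the sperm midpiece (1199 RPKM), Dbil5 (1133 RPKM), Ldhc, the lactate dehydrogenase of germ cells (1056 RPKM), the RNA-binding Ybx2 (1004 RPKM), the translation factor Eef1a1 (977 RPKM) and the poly(A)-binding Pabpc1 (949 RPKM). Eef1a1 was the only gene of these 10 that was higher in liver, at 3108 RPKM.

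In liver the first 10 per length were proteins of plasma and of lipid transport. Alb reached 40641 ± 8703 RPKM (SD, n = 5), and the apolipoproteins Apoe, Apoa2 and Apoa1 reached 21013, 20884 and 19787 RPKM. Fabp1, the fatty acid carrier of the hepatocyte cytosol, stood at 14673 RPKM, before Mup3, Serpina3k, transferrin (Trf), Apoc1 and fetuin (Ahsg), which lay between 10653 and 6074 RPKM. The level of Alb per library was 61706, 97404, 103032, 81996 and 69184 CPM in livers 1 to 5. Livers 2 and 3 were the highest and livers 1 and 5 the lowest. Mup3 and Serpina3k belong to families of near-identical copies, so that their single values are uncertain.

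Genes were called restricted to a tissue when they had at least 1 CPM in each library of it and at most 0.1 CPM in each library of the other. Over all 10 libraries, 1785 symbols (4.96% of 35976) were restricted to testis and 170 (0.473%) to liver. In testes 3 to 5 and livers 2 and 3 alone, 3616 (10.1%) were restricted to testis and 295 (0.820%) to liver. Of the 3616 symbols, 1836 (50.8%) were protein-coding and 1398 (38.7%) lncRNA in the RefSeq annotation, against 63.7% and 27.1% of the 295 liver symbols and 59.2% and 28.1% of all symbols.

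On the rule over all 10 libraries, Defb19, a beta-defensin of the testis, had 16.7 to 23.4 CPM in testes and no count in any liver, which is at least 239-fold higher with a floor of 6 counts over the 5 livers. Dynlrb2, a dynein light chain, had 22.1 to 27.6 CPM and no count in any liver. The other genes among the first 10 per length were Gm8672, Gm31072, Mir7232, Gm12206, Gm4984, Mir5627, Tex43 and 4930563M21Rik. Mir7232 and Mir5627 are short miRNA genes with 3.96 and 2.80 CPM on average in testes, and their short length gives them a high RPKM. Outside the first 10, Dmrt1, a regulator of the gonad, had 14.6 to 18.4 CPM in testes against 0. On the rule over 5 libraries, the first 10 were Tnp2, Tnp1, Prm2, Prm1, Ybx2, Fabp9, Tcp11, Oaz3, Gsg1 and Odf1, genes of spermatids. Prm2 was 111-fold higher in testis over all libraries and at least 10512-fold higher in testes 3 to 5 than in livers 2 and 3, which had no count.

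On the rule over all 10 libraries, Apoc4, an apolipoprotein, had 367 to 418 CPM in livers and no count in any testis, at least 11464-fold higher in liver. Gjb1, the connexin of hepatocyte gap junctions, stood at 1197 CPM against 0.0276 CPM. Cyp2j5 and Cyp2c67, cytochrome P450 enzymes, stood at 861 and 579 CPM against 0.0109 CPM in testes. Serpina11 and the urinary protein genes Mup9, Mup16, Mup12 and Mup2, with Gm21320, completed the first 10. On the rule over 5 libraries they were Alb, Mup3, Serpina3k, Mup7, Mup20, Car3, Gc, Serpina1e, Hamp and Mup21. Hamp encodes hepcidin, the hormone of iron balance, and stood at 929 ± 132 CPM (SD, n = 5) in liver.

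Promoters are shown because the restricted genes offer a view of the sequence next to their start sites. RefSeq promoters on GRCm38.p6 were found for 2448 of the testis symbols and 201 of the liver symbols on the 5-library rule, and the 250 bases before the first listed start were searched on both strands for 8 motifs. The HNF1 motif was held by 8 liver promoters (3.98%) and 6 testis promoters (0.245%), and by 0.411% of all 27025 promoters. The HNF4 motif CAAAGTCCA was held by 6 liver promoters (2.99%) and 6 testis promoters (0.245%), and by 0.381% of all. The cAMP response element TGACGTCA was held by 46 testis promoters (1.88%), by 0 of the 201 liver promoters and by 1.62% of all. The A-MYB motif TAACNGTC was held by 41 testis promoters (1.67%), 2 liver promoters (0.995%) and 1.18% of all, and the X-box by 3 testis promoters (0.123%), no liver promoter and 0.0629% of all. TATAAA was held by 21.4% of the liver promoters, 12.1% of the testis promoters and 3504 of all 27025 promoters, and the GC box GGGCGG by 6.97%, 23.7% and 32.9%. The C/EBP motif TTGCGCAA was held by 0.498%, 0.0817% and 0.170%. The median number of CpG in 250 bases was 2 in liver promoters, 4 in testis promoters and 6 in all. These are descriptions of letters in a window, and no test was made of them.

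For each of 5 motifs, the promoter of the restricted gene with the highest RPKM that holds it is printed, in capitals at the motif and from 5′ to 3′ towards the start site, for Prm2 at chr16:10792106-10792355 on the minus strand with TATAAA, Iqcf3 at chr9:106561627-106561876 on the minus strand with the cAMP response element, 1700030C14Rik at chr2:152654331-152654580 on the minus strand with the X-box, Gc at chr5:89457899-89458148 on the minus strand with the HNF1 motif and Cyp3a11 at chr5:145879855-145880104 on the minus strand with the HNF4 motif. Capitals can read as the reverse complement.
Prm2: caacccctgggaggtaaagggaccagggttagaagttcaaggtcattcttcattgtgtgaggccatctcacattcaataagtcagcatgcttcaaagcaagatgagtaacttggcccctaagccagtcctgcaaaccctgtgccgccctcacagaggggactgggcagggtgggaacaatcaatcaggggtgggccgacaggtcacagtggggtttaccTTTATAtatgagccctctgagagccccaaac
Iqcf3: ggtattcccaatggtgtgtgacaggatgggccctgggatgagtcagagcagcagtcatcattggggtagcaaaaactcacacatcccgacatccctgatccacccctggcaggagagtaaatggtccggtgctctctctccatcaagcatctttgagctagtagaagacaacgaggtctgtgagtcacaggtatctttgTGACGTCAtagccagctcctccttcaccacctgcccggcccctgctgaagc
1700030C14Rik: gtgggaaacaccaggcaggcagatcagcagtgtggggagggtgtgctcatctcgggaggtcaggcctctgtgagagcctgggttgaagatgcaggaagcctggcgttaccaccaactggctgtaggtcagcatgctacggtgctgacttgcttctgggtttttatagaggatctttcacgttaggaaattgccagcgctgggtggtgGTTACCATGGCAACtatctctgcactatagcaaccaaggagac
Gc: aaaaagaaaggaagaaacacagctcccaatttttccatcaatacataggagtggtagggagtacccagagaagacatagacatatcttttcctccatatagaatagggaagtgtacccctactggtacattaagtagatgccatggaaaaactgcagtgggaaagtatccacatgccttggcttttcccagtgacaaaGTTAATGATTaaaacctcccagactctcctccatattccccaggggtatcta
Cyp3a11: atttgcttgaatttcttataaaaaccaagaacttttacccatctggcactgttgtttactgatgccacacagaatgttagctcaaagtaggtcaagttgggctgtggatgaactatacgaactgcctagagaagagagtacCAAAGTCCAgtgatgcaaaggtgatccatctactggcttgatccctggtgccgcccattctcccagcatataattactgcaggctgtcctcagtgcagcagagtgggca

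The motif began 31 bases before the start in Prm2, 51 in Iqcf3, 43 in 1700030C14Rik, 52 in Gc and 109 in Cyp3a11. Iqcf3 had 284 to 333 CPM in testes and 1700030C14Rik 10.7 to 17.9 CPM. Gc encodes the vitamin D carrier of plasma. Cyp3a11, a drug-metabolizing enzyme, had 2733 to 5761 CPM in livers, with liver 5 the lowest.

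Marker genes placed each tissue as labelled. The 15 hepatocyte markers summed to 162184 to 209784 CPM in livers and 10.7 to 35.8 CPM in testes, and 15 of 15 were higher in liver. Kupffer cell markers, which name the macrophages of the liver, summed to 216 to 365 CPM in livers against 12.5 to 15.2 CPM in testes. Clec4f, the most specific of them, had 72.0 to 128 CPM in livers and a count in testis 2 only. Endothelial and stellate markers summed to 202 to 263 and 220 to 277 CPM in livers and 51.6 to 58.6 and 57.3 to 63.6 CPM in testes. Of 8 endothelial markers 7 were higher in liver and 1 was not called. Of 8 stellate markers 6 were higher in liver, 1 was not called and Ngfr was higher in testis (log2 change 0.65). Ngfr lost its call without testis 1, 2, 3 or 5 or liver 4 (0.54 to 0.66) and in the 5 libraries alone (0.43). Of 8 cholangiocyte markers, 7 were tested and 1 of these was not called. Among them 3 were higher in liver, Krt19 and Spp1 included, and 3 in testis (Epcam, Cftr and Muc1). Over all genes tested 31.3% were higher in liver and 55.4% in testis, so that these markers did not set the tissues apart. Markers of blood and neutrophils summed to 425 to 745 CPM in livers and 14.9 to 20.5 CPM in testes.

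Germ cell markers of each stage were detected in the testes. Here 12 spermatogonial markers summed to 117 to 126 CPM, 14 spermatocyte markers to 1642 to 1729 CPM, 12 round spermatid markers to 1371 to 1486 CPM and 14 elongating spermatid markers to 15542 to 18351 CPM. These sums are not per length and lists differ in size. In livers the spermatogonial markers summed to 194 to 210 CPM, above the testes, with Gfra1, a receptor for GDNF, at 182 CPM on average against 5.04 CPM in testes. Of the 11 spermatogonial markers tested 9 were higher in testis, against 55.4% of all genes tested. Gfra1 was higher in liver and Zbtb16 was not called. Spermatocyte and round spermatid markers summed to 46.2 to 70.4 and 18.1 to 28.8 CPM in livers. The elongating spermatid markers summed to 2.06 to 266 CPM there, with 2.20 CPM at most in livers 2 and 3. Of 14 Sertoli markers 12 were higher in testis, among them Amhr2 and Cldn11, which had 117 ± 7.54 and 50.4 ± 2.67 CPM (SD, n = 5) in testes and 0.544 ± 0.246 and 0.188 ± 0.327 CPM in livers. Clu, an abundant secreted chaperone of both tissues, was higher in liver with a log2 change of -2.39 (463 CPM in testis and 2428 CPM in liver), and with it the list summed to 782 to 849 CPM in testes and 2270 to 2664 CPM in livers. Sox9, a Sertoli cell transcription factor, was not called (19.6 against 13.3 CPM, log2 change 0.57), but passed as higher in testis with DESeq2 size factors (0.93), library totals (1.43), at least 10 counts per library (1.14) and the replicate block (0.62), and without testis 2, 4 or 5 or liver 1, 2 or 3 (0.59 to 0.78). Leydig markers Cyp17a1 and Insl3 had 255 ± 48.5 and 40.9 ± 3.77 CPM against 1.25 and 0.0816 CPM. Of 10 Leydig markers, 9 were higher in testis, and Fdx1, an electron carrier of steroid synthesis, was higher in liver with 87.3 CPM against 14.8 CPM. Of 7 peritubular myoid markers, 6 were tested, 4 were higher in testis, 1 was not called and Mylk was higher in liver (log2 change -0.59). Mylk lost its call with DESeq2 size factors (-0.23) and the 5 libraries alone (-0.44), and turned to 0.27 with library totals. The call was also lost without testis 1, 3, 4 or 5 or any 1 liver (-0.58 to -0.43). Of 8 epididymis markers, Cst8, which spermatids also express, had 102 to 150 CPM in testes, and Defb30 had 1.59 CPM on average in testes and no count in livers, and both were called higher in testis. The other 6 were not tested and stayed at 0.0459 CPM or below on average.

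**Figure D3:**
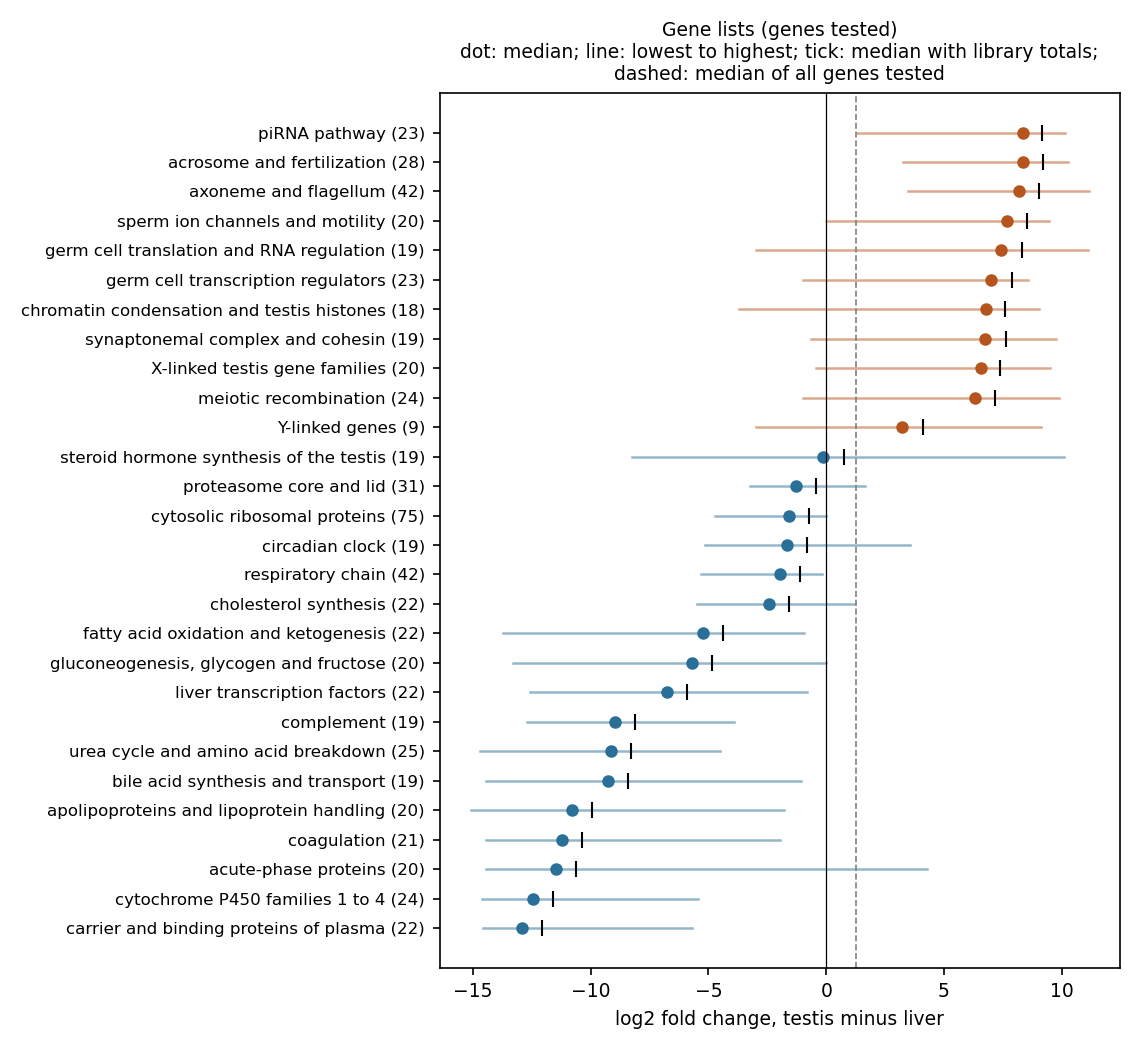
Log2 fold change, testis minus liver, for 28 lists of genes by function; dots are list medians, lines run from the lowest to the highest member, ticks are the medians with library totals, and the dashed line is the median of all genes tested at 1.25. The medians reach 8.37 for the piRNA pathway and -12.94 for the carrier proteins of plasma.

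Genes of chromatin condensation and testis histones were higher in testis in 16 of 18 cases, against 55.4% of all genes tested, with a median log2 change of 6.79 when genes with no count in livers are set at their lower bound. This median was 8.22 in testes 3 to 5 and livers 2 and 3 alone. Prm1 per library had 1613, 1414, 1600, 1097 and 1174 CPM in testes 1 to 5 and 22.6, 0.0762, 0, 4.19 and 39.3 CPM in livers 1 to 5. Testes 4 and 5 were the lowest, and the groups did not overlap. The log2 change was 6.76 ± 1.33 (SE) with an adjusted p of 0.000857. Prm1 was 104-fold higher in testis over all libraries. In testes 3 to 5 it was 33867-fold higher than in livers 2 and 3, which had 1 count. H1f0, a linker histone of resting somatic cells, and Rnf8, a ubiquitin ligase, were higher in liver, with 211 and 2.54 CPM against 16.0 and 1.49 CPM in testis. Rnf8 turned to 0.10 with library totals. Its call was also lost with DESeq2 size factors (-0.40), at least 10 counts per library (-0.18) and the 5 libraries alone (-0.41).

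Meiotic genes followed the same direction. Of 20 genes of the synaptonemal complex and cohesin, 19 were tested. Of these, 18 were higher in testis and Meiob in liver, against 55.4% and 31.3% of all genes tested. Stag3, a meiotic cohesin, had 497 ± 16.7 CPM (SD, n = 5) and Sycp2, an axial element protein, had 235 ± 9.25 CPM in testes, against 1.26 and 0.427 CPM in livers. Of 25 recombination genes, 24 were tested, 20 were higher in testis and 2 in liver. Spo11, which makes the meiotic double-strand breaks, had 30.3 to 35.5 CPM in testes and 0.503 CPM at most in livers. Tex15 had 131 CPM, and Psmc3ip, a partner of the strand-exchange enzymes, had 84.5 CPM. Prdm9, which places the breaks, was higher in liver with 10.1 ± 1.81 CPM against 5.07 ± 0.915 CPM (SD, n = 5), a log2 change of -0.99 with an adjusted p of 5.34e-05. Meiob had 19.4 ± 3.98 CPM in liver against 12.3 ± 1.35 CPM in testis. Prdm9 kept its sign with library totals (-0.13) and with at least 10 counts per library (-0.42) but not its call, whereas Meiob turned to 0.22. The call of Meiob was also lost without testis 3 (-0.58), liver 3 (-0.54), liver 4 (-0.58) or liver 5 (-0.53). So it was with DESeq2 size factors (-0.29), no filter on low counts (-0.57) and at least 10 counts per library (-0.07). The counting options are not given, so that reads of overlapping genes cannot be set apart.

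Of 24 genes of the piRNA pathway, which silences transposons in germ cells, 23 were tested and 23 were higher in testis, with a median log2 change of 8.37. Tdrd6 and Mael reached 967 and 765 CPM. Piwil1, the Argonaute protein of pachytene piRNAs, had 398 to 461 CPM in testes 1 to 5 and 1.22, 0, 0, 0.344 and 1.51 CPM in livers. Among regulators, 21 of 24 germ cell transcription regulators were higher in testis, with Kctd19 (483 CPM), Dmrtb1 (435 CPM) and Zfp541 (317 CPM) at the highest level. Rfx2, which turns on genes of cilia, had 316 CPM in testis and 3.28 CPM in liver. Of 23 genes of translation and RNA regulation, 16 were higher in testis, among them Ybx2 (1818 CPM) and Ybx3 (1239 CPM), and Ddx3y, Celf1 and Tnrc6a were higher in liver, of which Celf1 (-0.53) and Tnrc6a (-0.43) lost their calls with library totals.

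Genes of sperm structure were higher in testis. Of 28 genes of the acrosome and fertilization, 28 were higher in testis, and of 42 genes of the axoneme and flagellum 42 were, more than 4-fold in each case. Odf2, an outer dense fibre protein, had 3038 ± 164 CPM (SD, n = 5) in testes and 31.7 ± 21.3 CPM in livers, with 14.6 CPM on average in livers 2 and 3. Akap4, the main protein of the fibrous sheath, had 1785 ± 56.0 CPM against 7.37 CPM, and 0 in livers 2 and 3. Dnah8, a dynein heavy chain, had 1392, 1390, 2231, 2694 and 1333 CPM in testes 1 to 5, with testes 3 and 4 the highest. Adam3 and Clgn, needed for sperm to bind the egg, had 644 and 497 CPM. Of 20 ion channel and motility genes 18 were higher in testis, and Hvcn1 and Prkaca were not called. Catsper1, the calcium channel of the sperm tail, had 124 to 146 CPM in testes and 0.754 CPM at most in livers.

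Proteins of plasma made the other extreme. Of 22 carrier and binding proteins of plasma, 22 were higher in liver, against 31.3% of all genes tested, with a median log2 change of -12.94. The same held for 21 of 21 coagulation genes (median -11.20), 19 of 19 complement genes (-8.98) and 20 of 20 apolipoprotein genes (-10.80). Fga, Fgb and Fgg, the chains of fibrinogen, reached 10629, 8419 and 5702 CPM in livers and stayed under 1 CPM on average in testes. Prothrombin (F2) had 2481 to 2910 CPM in livers and 0.0924 to 0.553 CPM in testes. C3, the central complement protein, had 13382 ± 1693 CPM (SD, n = 5) against 7.68 ± 2.29 CPM. Apoa1 had 18640 to 22815 CPM in livers, and 3.23, 2.41, 0.170, 0.0560 and 0.0616 CPM in testes 1 to 5.

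Enzymes of hepatocyte metabolism were higher in liver with few exceptions. Of 25 genes of the urea cycle and amino acid breakdown, 25 were, with a median log2 change of -9.15. Cps1, the first enzyme of the urea cycle, had 2212 to 2562 CPM in livers and 1.08 to 2.46 CPM in testes, and Otc, the X-linked second enzyme, had 416 to 449 CPM in livers and counts in testis 5 only. Of 19 genes of bile acid synthesis and transport, 19 were higher in liver. Cyp7a1, the rate-limiting enzyme of bile acid synthesis, had 131, 264, 250.5, 207 and 194 CPM in livers 1 to 5, with liver 1 the lowest. Cyp8b1 had 1434 ± 187 CPM (SD, n = 5). Of 25 cytochrome P450 genes, 24 were tested and 24 were higher in liver, with Cyp2e1 at 9350 CPM and Cyp2f2 at 5193 CPM. Cyp2f2 kept 11.4 ± 0.644 CPM in testes.

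Of 20 genes of gluconeogenesis, glycogen and fructose, 19 were higher in liver, and Pck2 was not called, though it was higher in testis with library totals (0.87). Pck1, the key enzyme of gluconeogenesis, had 2847, 1334, 1384, 5188 and 3015 CPM in livers 1 to 5. Livers 2 and 3 were the lowest and liver 4 the highest, and testes had 0.830 CPM at most. Fbp1 had 248 ± 24.3 CPM in testes and 725 ± 72.2 CPM in livers (SD, n = 5), a log2 change of only -1.55. Of 22 genes of fatty acid oxidation and ketogenesis, 21 were higher in liver and Fgf21 was not called. Acsl1, which activates fatty acids, was high in both, with 570 and 2409 CPM. Of 22 liver transcription factors, 22 were higher in liver, with Hnf4a (1138 CPM) and Cebpa (829 CPM) at the highest level. Onecut1 had 47.2 and 45.4 CPM in livers 2 and 3 and at most 31.0 CPM in the others. Foxa2 had 26.6, 68.7, 67.9, 30.0 and 38.2 CPM in livers 1 to 5, with livers 2 and 3 again the highest.

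Pathways that both tissues use held members higher in each. Of 22 cholesterol synthesis genes, 19 were higher in liver and 3 in testis. Fdft1 (204 against 86.4 CPM) and Sqle (97.9 against 50.4 CPM), which make squalene and oxidize it, were higher in testis. Of 20 genes of steroid hormone synthesis, 19 were tested, 9 were higher in testis and 9 in liver, against 55.4% and 31.3% of all genes tested. Cyp11a1, which cleaves cholesterol, had 40.2, 41.7, 56.1, 62.1 and 61.5 CPM in testes, and Cyp17a1, the 17-alpha-hydroxylase, had 203, 212, 254, 287 and 317 CPM. Testes 1 and 2 were the lowest for both. These 2 also held the most counts of liver genes, at 0.0123% and 0.0129% of the liver level, and a link was not tested. Star, Hsd3b6 and Hsd17b3 were also higher in testis. Scp2 (3316 CPM in liver), Cyb5a (743 against 8.08 CPM) and Akr1c14 (330 against 1.30 CPM), which also serve lipid and steroid handling in hepatocytes, were higher in liver.

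Housekeeping lists leaned to liver under this scaling, where 31.3% of all genes tested were higher in liver. Of 75 cytosolic ribosomal proteins, 67 were higher in liver and none in testis, with a median log2 change of -1.57, which moved to -0.71 with library totals. Of 42 respiratory chain genes 40 were higher in liver (median -1.95, or -1.09 with library totals), and of 31 proteasome genes 24 were higher in liver (median -1.29, or -0.42) and Psma6, Psmc2 and Psmc3 in testis. Psmd2 and Psmd8 were not called, but passed as higher in testis with DESeq2 size factors (0.88 and 0.79), library totals (1.38 and 1.30) and the 5 libraries alone (0.83 and 0.74), and Psmd2 also without liver 1 or liver 4 (0.63). Rplp0, with 490 and 524 CPM, was not called, though it was higher in testis with library totals (0.76). Psmc3 had 644.5 ± 10.6 CPM in testis and 205 ± 14.5 CPM in liver (SD, n = 5).

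Pairs of related genes showed which form each tissue used. Among 11 X-linked genes with an autosomal retrogene, 9 X-linked genes were higher in liver, against 31.3% of all genes tested. Of the retrogenes 10 were higher in testis, against 55.4%. Pgk1, the glycolytic enzyme phosphoglycerate kinase, had 4.02, 4.01, 4.73, 4.25 and 3.63 CPM in testes 1 to 5 and 115, 102, 113, 111 and 121 CPM in livers. Its retrogene Pgk2 had 698, 706, 713, 686 and 647 CPM in testes and 3.39, 0, 0, 0.938 and 7.79 CPM in livers. The groups did not overlap for either gene. The log2 change was -4.76 ± 0.0913 (SE) for Pgk1, with an adjusted p of 1.4e-14, and 8.41 ± 0.913 for Pgk2, with an adjusted p of 1.21e-05. Per length, Pgk2 made up 99.5% of the pair in testes and 2.18% in livers, and 0 in livers 2 and 3.

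The 250 bases before the start are printed for this pair, since the genes encode the same enzyme from different chromosomes, with Pgk1 at chrX:106186850-106187099 on the plus strand and Pgk2 at chr17:40208610-40208859 on the minus strand. Capitals mark the GC box, read on either strand. Pgk1 holds 1 GC box and 17 CpG, and Pgk2 holds 0 and 3.
Pgk1: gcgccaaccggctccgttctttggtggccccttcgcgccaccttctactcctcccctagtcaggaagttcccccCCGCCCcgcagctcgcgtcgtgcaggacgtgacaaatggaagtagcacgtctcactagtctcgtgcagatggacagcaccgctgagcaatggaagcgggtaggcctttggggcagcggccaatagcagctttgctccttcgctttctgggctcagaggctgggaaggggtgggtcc
Pgk2: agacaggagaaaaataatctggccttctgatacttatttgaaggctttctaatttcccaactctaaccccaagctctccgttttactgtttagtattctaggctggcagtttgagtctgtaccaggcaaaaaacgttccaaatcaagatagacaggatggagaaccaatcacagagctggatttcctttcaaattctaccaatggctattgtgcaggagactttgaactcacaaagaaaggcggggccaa

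The same switch was seen for Pdha1 and Pdha2 (98.4% Pdha2 in testes), subunits of pyruvate dehydrogenase, for the ribosomal proteins Rpl10 and Rpl10l (87.3%) and Rpl39 and Rpl39l (94.6%), for Gk and Gk2 (99.9%), which phosphorylate glycerol, for Cetn2 and Cetn1 (98.6%), for Rbmx and Rbmxl2 (95.4%) and for Utp14a and Utp14b (64.5%). G6pdx had 6.56 ± 0.594 CPM in testes and 4.61 ± 1.45 CPM in livers and was not called (log2 change 0.49), though it passed as higher in testis without liver 1 (0.61) or liver 4 (0.61), with DESeq2 size factors (0.85), with library totals (1.35) and with at least 10 counts per library (1.06), while G6pd2 had 26.7 to 39.0 CPM in testes and no count in livers. Cstf2, a factor of mRNA 3′ end formation, was the exception, with a higher level in testis (56.6 against 16.2 CPM), and Cstf2t was not called (44.7 against 36.7 CPM). Cstf2t passed as higher in testis with DESeq2 size factors (0.64), library totals (1.15) and at least 10 counts per library (0.86), so that the count of 10 retrogenes depends on the setting. Zfx was higher in liver (log2 change -0.64) and its copy Zfa-ps higher in testis. Zfx turned to 0.22 with library totals and lost its call without testis 2 (-0.57) or liver 4 (-0.48). The call of Zfx was also lost with DESeq2 size factors (-0.28), no filter on low counts (-0.57), at least 10 counts per library (-0.07) and the 5 libraries alone (-0.36). The count of 9 X-linked genes higher in liver thus also depends on the setting. The other X-linked genes that were higher in liver kept that sign with each scaling, though Rbmx lost its call with library totals (-0.42).

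**Figure D4:**
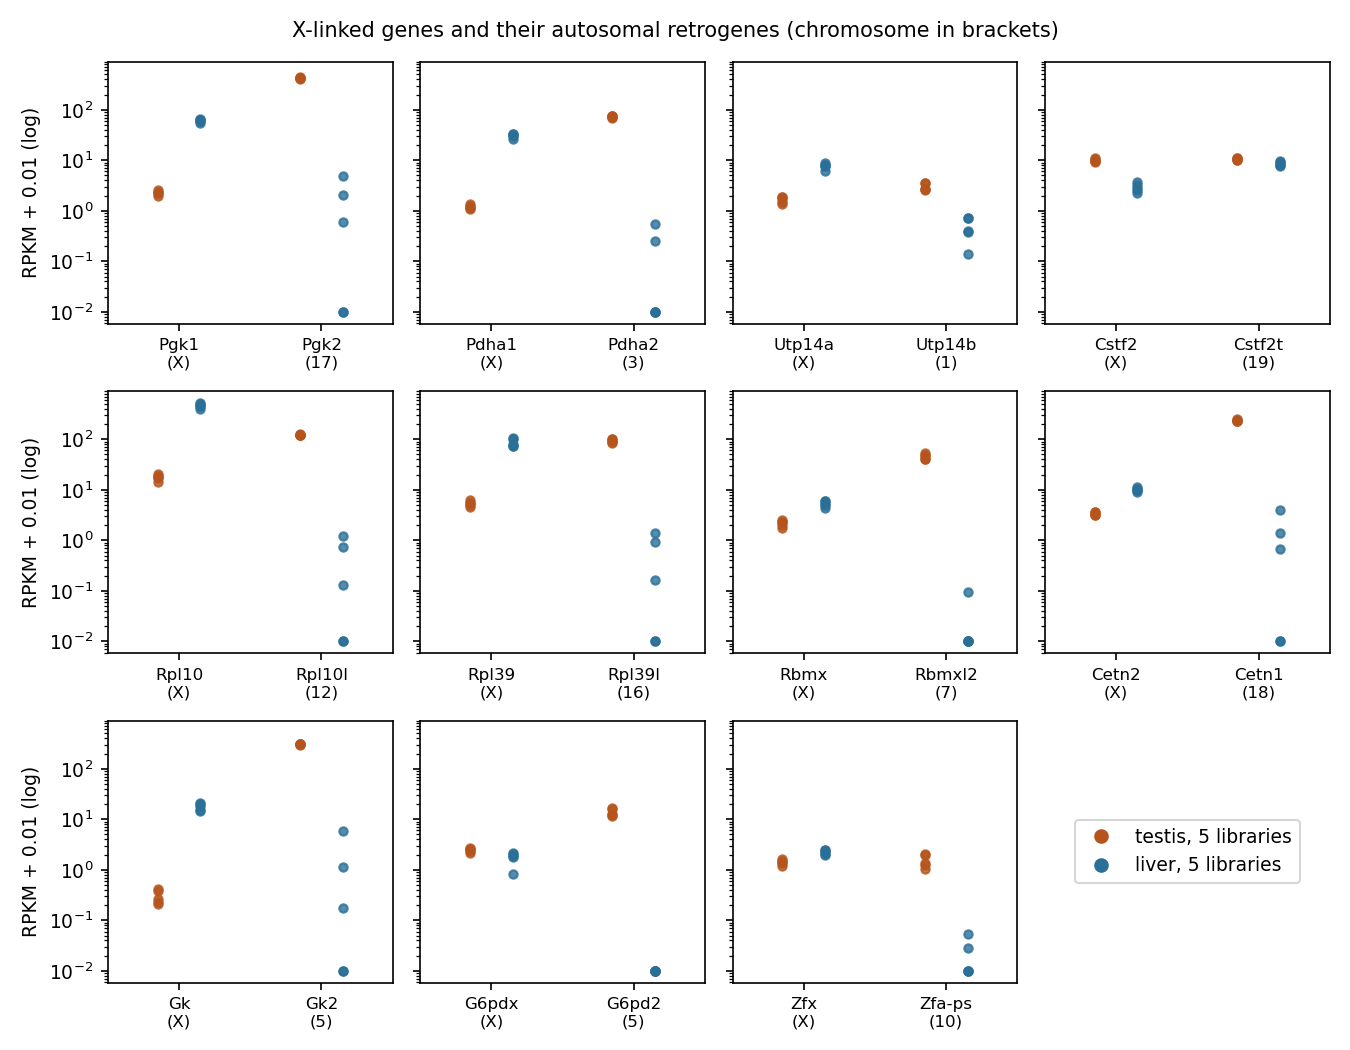
RPKM + 0.01 on a log axis of 11 X-linked genes and their autosomal retrogenes in 5 testes and 5 livers; each point is 1 library. Retrogene points of livers reach the bottom, where no count was found, and Pgk2 stands near 424 RPKM in testes.

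In 28 pairs of a somatic and a germ cell form, 27 germ cell forms were higher in testis (all genes tested, 55.4%). Eif4e1b was not tested. The somatic form was higher in liver in 13 (all genes tested, 31.3%), higher in testis in 9 and not called in 6. These counts depend on the setting. With library totals Ppp3ca (1.14), Tuba1b (0.75) and Papola (0.87) were also among those that passed as higher in testis. Ppp3r1 (-0.55) lost its call there, and Ubqln1, higher in liver as reported, turned to 0.12. Ubqln1 also lost its call with DESeq2 size factors (-0.38) and at least 10 counts per library (-0.17). In the same settings Ppp3ca passed as higher in testis (0.64 and 0.85). In glycolysis, Gapdhs, the sperm form of glyceraldehyde phosphate dehydrogenase, had 1270 to 1371 CPM in testes and Gapdh only 27.1 to 38.3 CPM, against 623 to 879 CPM in livers. Ldha, the somatic lactate dehydrogenase, was not called, though it was higher in testis with library totals (0.72), with 622 ± 16.8 CPM in testes and 688 ± 72.4 CPM in livers (SD, n = 5), while Ldhc took 76.3% of the pair in testes. Aldoa (higher in testis) and Aldoart1 shared the testis, with 32.0% for Aldoart1. In respiration, Cyct, Cox6b2 and Cox7b2 took 89.6%, 91.8% and 97.6% and Cox8c a like share of their pairs in testes and under 1% on average in livers. In meiosis, Smc1b and Stag3 took 96.4% and 97.3% against X-linked Smc1a and Stag2, which were higher in liver, while Rad21l took 6.07% and Rad21 was not called, though it passed as higher in testis with DESeq2 size factors (0.60), library totals (1.10) and at least 10 counts per library (0.81).

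Germ cell forms of signalling, protein folding and other functions were also higher in testis, but their somatic partners were not always lower there. Of the 28 somatic forms, 13 were higher in liver and 9 in testis. Those higher in testis included Capza1 (log2 change 2.73) and Slc25a4 (2.05). Ppp3r2 took 95.2%, Ppp3cc 79.0%, Capza3 80.0%, Slc25a31 57.3%, Psma8 72.8%, Txndc2 98.6%, Tuba3a 98.4%, Hspa2 93.4% and Hspa1l 98.2% of their pairs in testes, next to Ppp3r1, Ppp3ca, Capza1, Slc25a4, Psma7, Txn1, Tuba1b, Hspa8 and Hspa1b. In the start and the tail of transcripts, Tbpl1 (92.9%), Gtf2a1l (94.5%), Taf7l (65.3%) and Papolb (85.9%) led over Tbp, Gtf2a1, Taf7 and Papola. Tbpl1 also led in livers, with 85.6%. Pabpc1 stayed the main form in testis, where Pabpc2 took 22.8%. Spag6 and Spag6l were both higher in testis, and Eif4e (22.5 RPKM) stood far above Eif4e1b (0.138 RPKM).

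For 13 pairs of a liver form and another form, the liver form was higher in liver in 13. Slc2a2, the glucose transporter of hepatocytes, had 202 to 227 CPM in livers, and Slc2a3, the high-affinity transporter, had 1080 to 1274 CPM in testes, a log2 change of 9.20 ± 0.652 (SE) with an adjusted p of 2.53e-07. Hk1, a hexokinase, had 1348 to 1479 CPM in testes. Pklr gave way to Pkm (over 99% in testes) and Pygl to Pygb (72.2%), and both second forms were higher in testis. Mat2a, Pck2 and Acaca were not called, though Acaca passed as higher in liver without testis 5 (-0.67), liver 2 (-0.60), liver 3 (-0.62) or liver 5 (-0.59), and Gys1 was higher in liver together with Gys2, though its level was 0.384 RPKM in testis and 0.858 RPKM in liver and its call was lost with library totals (-0.35). Cpt1b was higher in testis, while Cpt1a stayed the main form in both tissues, and Fbp2 was not tested next to Fbp1.

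X-linked genes as a whole stood apart among genes that liver uses. Of 207 X-linked genes with at least 10 CPM on average in liver, 85.5% were higher in liver, and the median log2 change was -2.56. For 8014 autosomal genes above the same level 58.6% were higher in liver and the median was -1.03, and the medians of the 19 autosomes ran from -1.48 to -0.70. With library totals the medians were -1.70 and -0.17, and with DESeq2 size factors -2.20 and -0.67. Pgrmc1, a heme-binding protein, had 72.9 to 97.9 CPM in testes and 2062 to 2243 CPM in livers. Among all 713 X-linked genes tested, 56.1% were higher in testis, near the 55.4% of all genes tested and the 54.1% of autosomal genes, but their median log2 change was 2.09, against 1.07 for autosomal genes and 0.46 to 1.74 for single autosomes. On the 5-library rule 201 X-linked symbols were restricted to testis and 4 to liver, of 3616 and 295 in all. Those 201 made up 28.2% of the X-linked genes tested, where single autosomes gave 10.1% to 20.3%. Of 27 genes of X-linked testis families, 20 were tested and 19 were higher in testis, among them Taf7l, a paralogue of a TFIID subunit (21.7 to 26.0 CPM), and Tex13a (42.0 CPM), and Slx and Srsx stayed under the filter. Several of these families have near-identical copies, and their counts are uncertain.

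Of the 19 genes tested that the annotation places on the Y chromosome, 15 (78.9%) were higher in testis and 4 (21.1%) in liver. Over all genes tested these shares were 55.4% and 31.3%. The median fitted log2 change was 7.99, without the floor for genes with no count in a tissue. The list of 14 named Y-linked genes held 9 of the 19, 5 higher in testis and 4 in liver. The median of these 9 was 7.25 as fitted and 3.24 with the floor. The other 10 were higher in testis and were Orly and 9 predicted gene models, from Gm39555 (0.412 CPM in testes) to Gm20906 (8.14 CPM). Ddx3y, Eif2s3y, Kdm5d and Uty, which are expressed in many tissues, were higher in liver. Ddx3y, an RNA helicase, had 7.76 to 10.6 CPM in testes and 62.0 to 85.9 CPM in livers. Eif2s3y had 23.9 ± 2.28 CPM against 41.3 ± 3.30 CPM (SD, n = 5), and its call was lost with DESeq2 size factors (-0.43) and its sign with library totals (0.07). Zfy1, Zfy2, Usp9y, Uba1y and Tspy-ps were higher in testis. Uba1y, a ubiquitin-activating enzyme, had 16.6 to 19.2 CPM in testes and a count in liver 5 only, and Usp9y had 5.41 to 7.90 CPM and none. Ssty1, Ssty2 and Sly, which have many copies, are listed at 0 in testes.

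Livers varied more among themselves than testes. The biological coefficient of variation was 0.181 in livers, over 11580 genes, and 0.117 in testes, over 19455 genes, so that the sets of genes differ. Over genes with at least 10 CPM on average, the ratio of the highest to the lowest library had a median of 1.34 in livers (8267 genes) and 1.18 in testes (8963 genes), and its 95th percentile was 2.11 and 1.48. Depth differed more among livers, and livers 1, 4 and 5 held more counts of testis genes than livers 2 and 3. The parts of depth and of these counts in the spread were not tested.

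Clock genes carried some of this spread. Arntl, a driver of the circadian clock, had 3.58, 19.3, 21.0, 2.44 and 2.51 CPM in livers 1 to 5, and Npas2 had 0.942, 3.50, 4.84, 0.188 and 1.01 CPM. Livers 2 and 3 were the highest for both. Per1, a repressor in the clock, had 12.7, 2.36, 3.08, 39.2 and 21.7 CPM, and Dbp, a clock output, had 94.8, 25.5, 28.2, 130.1 and 138 CPM, with livers 2 and 3 the lowest. The livers with the most testis gene counts were thus also those with high Per1 and Dbp. Dbp itself had 4.35 to 6.42 CPM in testes, below each liver. The part of the testis gene counts in the clock values was not tested. In testes the ratio of highest to lowest was 1.09 for Per1, 1.36 for Arntl and 1.48 for Dbp, but 3.65 for Bhlhe40 and 2.73 for Bhlhe41, which in livers had 2.04 and 4.96. Not every clock gene varied among livers, and Nr1d1, Cry2 and Rora had ratios of 1.19, 1.28 and 1.30 there, under the median of 1.34 over all genes. Of 19 clock genes, 14 were higher in liver, 2 (Per1 and Cry1) in testis and 3 were not called. The shares over all genes tested were 31.3% in liver and 55.4% in testis. Per1 had 187 to 205 CPM in testes, a log2 change of 3.56 ± 0.656 (SE) with an adjusted p of 0.000553, and Cry1 had 42.2 to 45.7 CPM in testes against 2.92 to 9.52 CPM in livers.

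**Figure D5:**
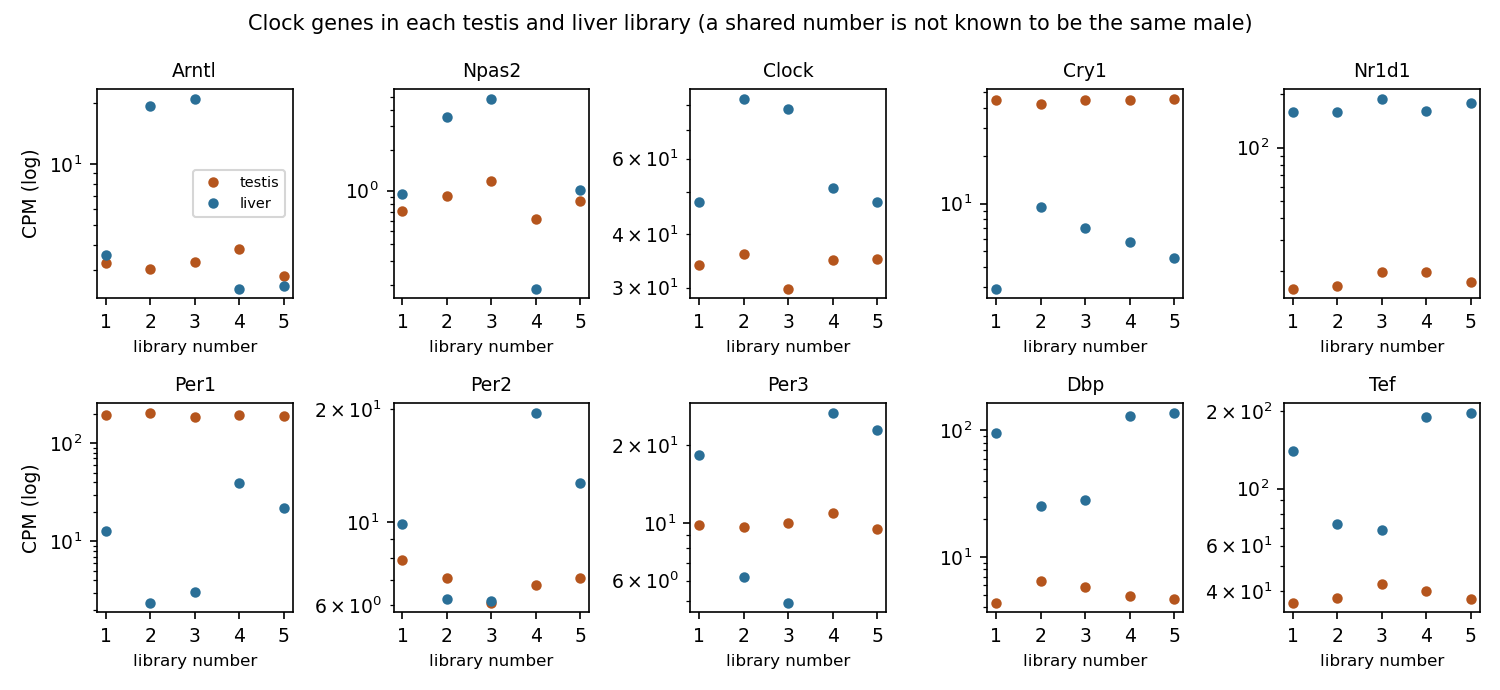
CPM on a log axis of 10 clock genes in each testis and liver library, by library number; each point is 1 library, and a shared number is not known to mean the same male. Most of these genes lie on a level line in testes, while livers 2 and 3 stand apart from livers 1, 4 and 5 for Arntl, Per1 and Dbp.

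Some acute-phase and multicopy genes also varied among livers, and those described here were chosen after their values were seen. Saa1, a serum amyloid that rises in inflammation, had 332, 85.0, 72.0, 37.3 and 339 CPM in livers 1 to 5, with livers 1 and 5 the highest, and Saa4 had 751 CPM in liver 1 and 269 to 478 CPM in the others. The acute-phase genes Crp, Fgg, Itih4, Fga, Serpina3n and Fgb had ratios of highest to lowest of 1.15 to 1.31 among livers, under the median of 1.34 over all genes. Of 20 acute-phase genes 19 were higher in liver, and Lcn2, a siderophore-binding protein, was higher in testis with 70.2, 72.7, 88.5, 97.1 and 96.6 CPM against 2.38 to 11.8 CPM. Serpina1e, an alpha-1-antitrypsin copy, had 244, 12380, 13780, 195 and 233 CPM in livers 1 to 5, so that livers 2 and 3 stood more than 50 times above the others. Mup7 had 7490, 4678, 5340, 6223 and 1567 CPM, and Mup9 had 1877, 609, 617, 514 and 3454 CPM. These genes have near-identical copies, and the parts of genotype and of read assignment in their spread were not tested.

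Tissues of other animals of the series gave a second comparison with no shared library, 5 F1 natural testes at 12 weeks against 5 F2 natural livers of daughters. Of 19049 genes tested there, 16333 (85.7%) were called, 56.8% (10817) higher in testis and 29.0% (5516) higher in liver. Of the 18837 genes tested in both comparisons, 10147 were higher in testis in sons, and 94.8% of these were higher in testis in the second comparison. Of 6119 higher in liver in sons, 81.2% were higher in liver there. The 9615 and 4966 genes called in both made up 90.0% and 91.0% of the second comparison's 10685 and 5460 calls among these 18837 genes. The call was opposite for 35 and 197 genes, among them the Y-linked Ddx3y and Eif2s3y, which daughters lack. The 497 testis genes of the check above summed to 0.0111% to 0.0147% of the testis level in livers of daughters.

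Other gonads held some of the restricted genes. Of 3616 symbols restricted to testis on the 5-library rule, 433 (12.0%) had at least 1 CPM in each of 4 F2 natural ovaries and 1316 (36.4%) had at most 0.1 CPM in each, against 39.5% and 30.7% of all symbols. The table of F1 natural testes at E18.5 lists 2230 of them, of which 598 (26.8%) had at least 1 CPM in each of 4 libraries, against 54.9% of all symbols listed. Of 211 liver symbols listed there, 10 (4.74%) reached it.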

How the data were processed

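The authors trimmed reads with Trimmomatic 0.32, aligned them to mm10 with STAR 2.3.0e and counted them per RefSeq symbol with featureCounts 1.5.0, per the submitters' processing notes, and deposited raw counts per gene. Options for strand and shared reads are not given in the sources used here. All later values were computed from these counts.

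Genes were filtered with filterByExpr by tissue, scaled with TMM and tested with edgeR 4.0.16 (robust quasi-likelihood test, R 4.3.3), with Benjamini-Hochberg adjustment over all genes tested. A call needs an adjusted p under 0.05 and more than 1.5-fold. The SE of a log2 change is its size divided by the square root of the test's F statistic, not an estimate from the fit itself. DESeq2 1.42.0, other scalings, filters, a replicate block, thinned counts and leaving out each library were alternatives. RPKM used the exon lengths of 27322 symbols from GENCODE M21. A gene at 0 in all libraries of a tissue was set at a floor of 6 counts, also in list medians but not in medians per chromosome. The p-values cover the spread between these samples only.

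The members and lists were chosen with earlier results of these data known. The text names the 10 genes of highest RPKM per tissue, the 10 restricted genes of highest RPKM, 2 to 4 members of highest CPM per list with those called against their list, and both genes of each pair. Some genes that this rule names are not reported here. Others, chosen after their values were seen, include Dmrt1, Spo11, Catsper1, F2, Cyp7a1, Onecut1, Foxa2, Acsl1, Rplp0, Saa1, Saa4 and Pgrmc1. The clock genes Arntl, Npas2, Bhlhe40, Bhlhe41 and Cry2 are also outside the naming rule. Of 869 list symbols, 863 were found. On simulated counts for testis against liver (19580 genes), 100 genes were changed by 1 on the log2 scale and 100 by 2. Of these, 80% and 100% were recovered, with 8 false calls. In the data 86.7% of the genes tested were called, and recovery at such a share of changed genes was not tested.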

Additional observations from a re-analysis of the deposited data

Results flagged for a closer look

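In 6 of 86 values tried over groups of 5, the highest or lowest library stood apart, with a gap to its neighbour over the range above Dixon's critical value of 0.71, which chance exceeds in about 1 of 20 groups. Total counts were lowest in testis 5 (23707177, ratio 0.744) and highest in liver 4 (44069283, ratio 0.777). In testes, the summed CPM of gluconeogenesis, glycogen and fructose genes was 487 in testis 5 and 527 to 540 in the others (ratio 0.754), that of meiotic recombination genes was 494 in testis 3 and 534 to 545 in the others (ratio 0.775), and that of acrosome and fertilization genes was 4226 in testis 1 and 4052 to 4093 in the others (ratio 0.762). In livers, bile acid genes summed to 9337 CPM in liver 1 and 9845 to 10025 CPM in the others (ratio 0.738).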

How the results depend on the processing

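With at least 10 counts in every library, 4182 genes were higher in testis and 4171 in liver, and 1937 and 1922 more than 4-fold, since this filter removes genes absent from a tissue. With a limit of 0.5 CPM in the other tissue, 3397 genes were restricted to testis and 620 to liver; with a minimum of 5 CPM 442 and 95, and in testes 3 to 5 and livers 2 and 3 alone 3616 and 295. The median of the steroid hormone list (-0.12) turned to 0.24 with DESeq2 size factors, 0.74 with library totals, 0.33 in the 5 libraries alone and lay between -0.17 and 0.056 when 1 library was left out. With library totals, log2 changes turned positive for Eif2s3y (0.074), Meiob (0.22), Mylk (0.27), Rnf8 (0.10), Ubqln1 (0.12) and Zfx (0.22). The cause of these changes of sign was not tested. Leaving out 1 library gave 11333 to 12285 genes higher in testis and 6164 to 6539 in liver. Same-numbered testes and livers did not deviate together (r from -0.039 to 0.058, 2 of 5 matching best with their own number), so that the numbers were not used to pair the samples, and whether a number stands for 1 male is not known. With the replicate block 11273 genes were higher in testis and 6351 in liver, 9207 and 3626 more than 4-fold, and 10692 and 5297 in F1 testes and livers of daughters. Of 294 genes that the naming rule gives, 281 kept direction and call with DESeq2 size factors and 268 with library totals. Counts thinned to the smallest library gave 9381 and 6221 calls, and counts halved gave 10069 and 6145.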
